A study of Mus musculus with 2 samples.

Results

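The genes described here carry new proteins into the endoplasmic reticulum (ER) or take misfolded proteins out of it for destruction. They were a list of 39 genes chosen by function, 26 for ER import and processing at the translocon and 13 for ER-associated degradation (ERAD), out of 18193 genes measured on the arrays. Of these, 37 had at least 1 probe set annotated to that gene alone, with 91 probe sets between them, and 89 of those probe sets could be compared. *Srp54a*, a subunit of the signal recognition particle, and *Sec61g*, a subunit of the Sec61 channel, lay only on probe sets shared with other genes and were given no value. Thus 24 import genes and 13 degradation genes were described.

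Specimens of *Tric-b*-KO mouse cartilage came from 2 zones, the columnar and hypertrophic section and the section enriched with round chondrocytes of the E17.5 femur. Both carried the *Tric-b* knockout on a background of C57BL/6J and 129Sv, and the labels give no further treatment. Each RNA was a mixture of preparations, 3 by the description of the design, and each zone had 1 array, so no difference between the zones has a replicate check, a standard error or a test. The methods describe only the round specimen. Every comparison is therefore between zones of knockout cartilage, and wild-type arrays were not analysed here.

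Most proteins that a cell secretes enter the ER while they are being made. The signal recognition particle (SRP) brings the ribosome to its receptor, the Sec61 channel threads the chain through the membrane, signal peptidase cuts off the leading peptide, and oligosaccharyl transferase adds sugar chains. Chains that fail to fold are recognised by their trimmed sugars, tagged with ubiquitin by the HRD1 ligase, pulled into the cytosol by the p97 ATPase and broken down. Chondrocytes depend on this machinery because they secrete collagen and proteoglycans in bulk, and several ERAD genes are known targets of the unfolded protein response (UPR) factors ATF6 and XBP1.

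Promoter sequences are shown for the degradation genes that hold a complete UPR element, since none of the described import genes with a promoter in the table did. The RefSeq table (GRCm38.p6) held the 300 bases from 250 before to 50 after the start for 33 of the 39 genes. They were searched on both strands for the ER stress response element (ERSE, read as CCAAT and CCACG with 9 bases between), for ERSE-II (ATTGG and CCACG with 1 base between), for the unfolded protein response element (UPRE, TGACGTGG) and for the core CCACG alone. The core is part of ERSE and ERSE-II and, read on the opposite strand, of every UPRE. Of 13 promoters of 12 degradation genes, 4 held ERSE, ERSE-II or UPRE, and of 22 promoters of 21 import genes, 0 did. Among all 32851 promoters in the table the share was 0.822%. The core alone was found in 76.9% of the degradation and 59.1% of the import promoters and in 32.8% of all promoters. The 160 bases before each start are printed 5′ to 3′ on the strand of the gene, with the fixed bases of the element in capitals.

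Derl3, chr10:75893238-75893397, + strand: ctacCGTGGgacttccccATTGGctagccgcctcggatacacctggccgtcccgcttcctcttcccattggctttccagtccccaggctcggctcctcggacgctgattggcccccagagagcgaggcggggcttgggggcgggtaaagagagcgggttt

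Syvn1, chr19:6046416-6046575, + strand: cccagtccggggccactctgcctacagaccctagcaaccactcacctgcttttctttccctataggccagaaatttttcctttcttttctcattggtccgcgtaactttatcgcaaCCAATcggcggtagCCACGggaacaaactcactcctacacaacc

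Herpud1, chr8:94386269-94386428, + strand: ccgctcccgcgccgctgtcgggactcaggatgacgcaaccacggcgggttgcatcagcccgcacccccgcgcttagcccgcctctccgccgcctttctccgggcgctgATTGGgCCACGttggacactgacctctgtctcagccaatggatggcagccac

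Vcp, chr4:43000508-43000667, - strand: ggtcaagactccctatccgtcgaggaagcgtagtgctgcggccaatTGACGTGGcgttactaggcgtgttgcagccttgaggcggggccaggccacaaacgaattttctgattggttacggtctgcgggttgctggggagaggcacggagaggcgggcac

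The ERSE of *Derl3* is read on the opposite strand and lies 156 to 138 bases before the start, while that of *Syvn1* lies at 44 to 26 bases. ERSE was found in 0.119% of all promoters in the table. *Herpud1* has ERSE-II at 52 to 42 bases, an element found in 0.0365% of all promoters. *Vcp* has the UPRE at 114 to 107 bases, as 0.676% of all promoters do. The 4 genes with such an element had a median log2 difference (columnar/hypertrophic minus round) of 0.39, with values from 0.31 to 0.97. The other 8 degradation genes with a promoter in the table had one of 0.28, with overlapping values from -0.23 to 0.58. The order was not stable. With the mean over the probe sets of each gene, *Derl3* was at 0.97, *Herpud1* at 0.20, *Syvn1* at 0.12 and *Vcp* at 0.11. The other 8 then lay from -0.39 to 0.46. Only exact matches were counted, and whether import or degradation genes without one respond to the UPR was not tested. A match describes the letters only, and whether a factor binds there was not tested.

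Most import and degradation genes had a somewhat higher signal in the columnar/hypertrophic section, and none differed from the round section by 2-fold. Of the 37 genes, 32 had a log2 difference above 0 and 5 one below 0, where 46.9% of all 12714 genes compared were above 0 and 53.1% below. The 13 degradation genes had a median of 0.33, a 1.26-fold higher signal, with 11 above 0. The 24 import genes had a median of 0.29, a 1.22-fold higher signal, with 21 above 0. The median of all genes compared was -0.04, and the middle 50% of them lay from -0.38 to 0.26. The described genes were brighter than most, with a median signal over both arrays of 6026, against 560 for all genes compared. Lowess centring, which removes a trend of the difference with signal, left 30 of the 37 above 0, against 51.5% of all genes. It lowered the medians to 0.28 for degradation and 0.13 for import. A difference of at least 2-fold was reached by 0 of the 37 in either direction, against 4.26% of all genes in favour of the columnar/hypertrophic section and 6.17% in favour of the round section. At 1.5-fold the 2 genes *Derl3* and *Spcs3* were higher in the columnar/hypertrophic section, where 10.4% of all genes were, and 0 were higher in the round section, where 15.2% of all genes were. Under median centring, quantile normalization and lowess centring *Derl3* passed 2-fold, at 1.06 to 1.16 on the log2 scale, so that the count of 0 became 1.

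Signals are given on a linear scale as deposited, and a gene is represented by its brightest probe set. These signals reached from 186 to 21734 among the 37 genes, all above the detection floor of 65.9 used here. The only measure of spread at hand was that between probe sets of the same gene, which pooled over 5446 genes came to an SD of 0.34 on the log2 scale. Among the 26 described genes with more than 1 compared probe set it was 0.26. Variation between animals or preparations is not part of it.

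**Figure D1:**
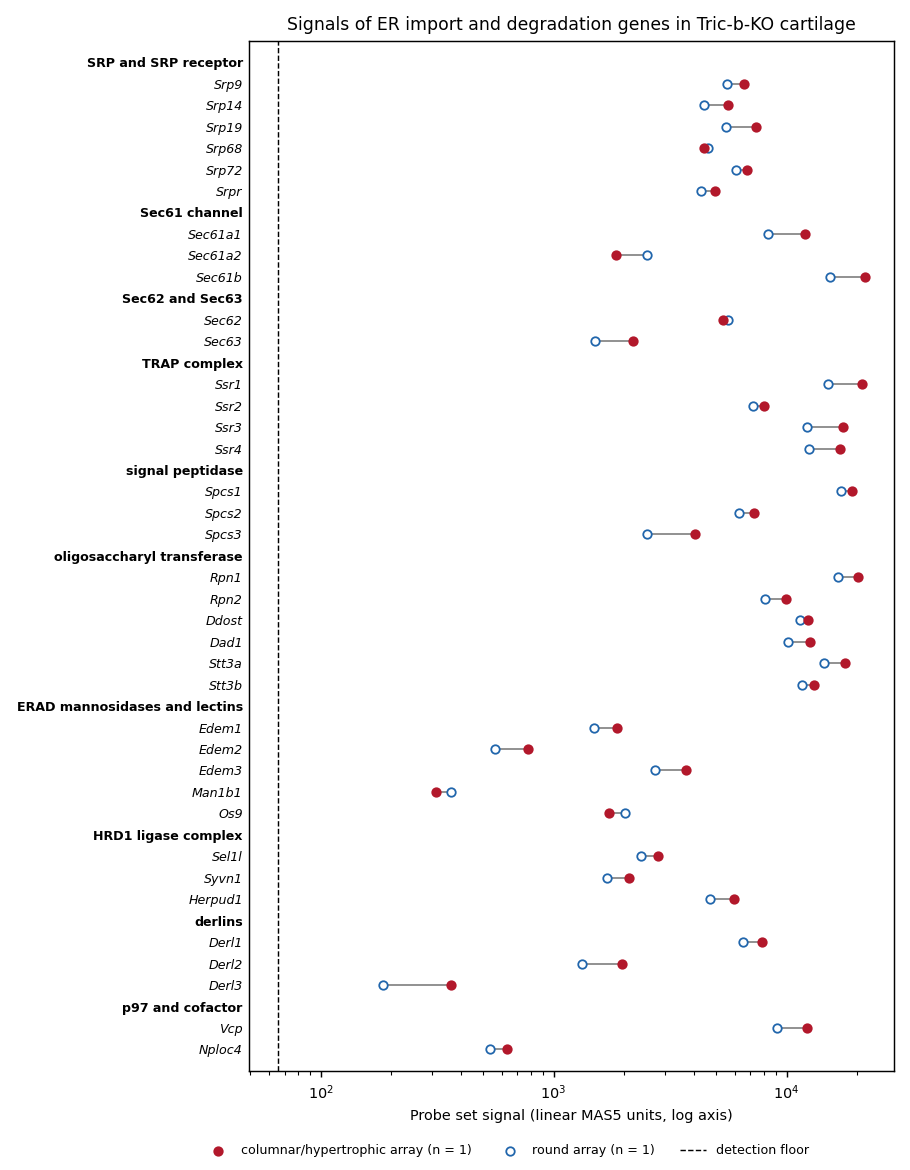
Signal of the brightest probe set (log axis) of each of the 37 genes in the columnar/hypertrophic section (filled circles) and the round section (open circles), 1 array each, with genes grouped by role. The dashed line is the floor of 65.9. The filled circle lies to the right in 32 genes, and *Derl3* shows the widest gap, at 364 against 186.

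Marker genes of hypertrophic and of round chondrocytes mostly followed the labels of the specimens, while columnar chondrocytes had no marker list. All 6 compared genes of prehypertrophic and hypertrophic chondrocytes favoured the columnar/hypertrophic section by 2-fold or more. In 3 of them the round signal was under the floor and set to it, and *Mmp13* of the same list lay under the floor in both. Of 7 genes of round or articular chondrocytes, 5 favoured the round section by 2-fold or more. The 7 cartilage genes, which include some of the brightest signals on the arrays, had a median log2 difference of 0.01. Perichondrial, tendon and fibroblast genes favoured the round section, 8 of 11 compared by 2-fold or more, with a median of -2.35 and a summed signal of 11897 in the columnar/hypertrophic section and 68807 in the round section. The probe set that stands for *Scx*, a tendon factor, lay under the floor in both. Endothelial signals were near the floor, with 4 of 5 compared genes higher in the round section and *Tek* and *Tie1* under the floor in both. In the skeletal muscle list 2 of 3 compared genes favoured the columnar/hypertrophic section by 2-fold or more, and *Myod1* and *Myog* were under the floor in both. In the myeloid list 3 of 4 compared genes were higher there, with *Ptprc* under the floor in both. The erythroid list had 1 compared gene, at -0.35. Of plasma and B cell genes *Jchain* and *Cd79a* were under the floor in both arrays, and *Ighm* was at -0.33. What part these other cells have in the differences below was not tested, and fewer cells of a type cannot be told apart from less RNA per cell.

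Among the genes of targeting, *Srp19* had the widest zone difference. SRP19 helps to assemble the SRP, and its gene had a signal of 7417 in the columnar/hypertrophic section and 5516 in the round section, a log2 difference of 0.43. *Srp14*, whose product with that of *Srp9* holds back translation during targeting, had signals of 5605 and 4432 in the columnar/hypertrophic and round sections, and its 4 probe sets gave 0.33 to 0.45. *Srp9* had signals of 6546 in the columnar/hypertrophic section and 5547 in the round section, 0.24, but its dimmer probe set gave -0.08. SRP68 and SRP72 form a pair on the particle. *Srp72* had 6756 in the columnar/hypertrophic section and 6074 in the round section, with probe sets at 0.15 and 0.41. *Srp68* had 4429 and 4612, a difference of -0.06, which made it the gene of this group nearest to 0. *Srpr*, encoding the SRP receptor subunit that docks the particle, had 4914 in the columnar/hypertrophic section and 4285 in the round section, 0.20, while its dim second probe set gave -0.30. Over the 6 genes the median was 0.22.

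The genes of the 2 Sec61 alpha subunits lay on opposite sides. SEC61A1 forms the pore of the channel, and SEC61A2 is its close paralog. *Sec61a1* had a signal of 11947 in the columnar/hypertrophic section and 8310 in the round section, a log2 difference of 0.52. Of its 6 probe sets 5 were above 0, at 0.35 to 0.62, and the remaining 1 was at -0.38. *Sec61a2* had 1859 in the columnar/hypertrophic section and 2530 in the round section, -0.44, and its other probe set gave -0.35. The log2 differences of the 2 paralogs were 0.97 apart. The pooled SD of 0.34 is for single probe sets of the same gene and does not measure the spread of such a gap. Both *Sec61a2* probe sets carry the _a_at suffix, so none was left among specific probe sets, and whether probes of either paralog also read the other was not tested. Its log2 difference was the lowest of the 37 genes as deposited, and 21.3% of all genes compared were at or below it. *Sec61b*, encoding the small beta subunit, had 21734 in the columnar/hypertrophic section and 15330 in the round section, 0.50 on its single probe set.

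SEC62 and SEC63 assist the Sec61 channel, chiefly with short chains and with the luminal chaperone BiP. The log2 differences of their genes were 0.62 apart. *Sec63*, encoding the J-domain partner of BiP, had 2183 in the columnar/hypertrophic section and 1500 in the round section, 0.54, with 4 of 5 probe sets above 0 and the lowest at -0.23. *Sec62* had 5322 in the columnar/hypertrophic section and 5631 in the round section, only -0.08, but all 5 of its probe sets were below 0, down to -0.70. Genes with more than 1 compared probe set and all of them below 0 made up 34.5% of such genes on the arrays. SEC62 is known as well as a receptor for the turnover of ER by autophagy.

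The translocon-associated protein (TRAP) complex sits beside Sec61 and aids the entry of certain chains. All 4 of its genes favoured the columnar/hypertrophic section as deposited, and their median was 0.46 on the log2 scale. *Ssr3* had 17487 in the columnar/hypertrophic section and 12209 in the round section, and its 2 probe sets gave 0.52 and 0.41. *Ssr1* had 21159 and 15129 in the columnar/hypertrophic and round sections, 0.48, with 3 of 4 probe sets above 0 and the lowest at -0.16. The third, *Ssr4*, had 16950 in the columnar/hypertrophic section and 12472 in the round section, 0.44, although a much dimmer probe set gave -0.51 and the mean over its probe sets was only 0.04. *Ssr2* was nearest to 0 in this group, with 7991 in the columnar/hypertrophic section and 7177 in the round section, and its sign turned under quantile normalization.

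Signal peptidase removes the leading peptide once the chain has entered. *Spcs3*, encoding an accessory subunit needed for cleavage, had 4062 in the columnar/hypertrophic section and 2526 in the round section, a log2 difference of 0.69 on its single probe set, and 8.02% of all genes compared were at or above this value. The other 2 subunit genes differed less. *Spcs2* had 7224 in the columnar/hypertrophic section and 6260 in the round section, with probe sets at 0.21 and 0.48. *Spcs1* had 19122 and 17145 in the columnar/hypertrophic and round sections, 0.16, and its 3 probe sets lay on both sides of 0, from -0.27 to 0.22.

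The genes of oligosaccharyl transferase were even. All 6 of them were higher in the columnar/hypertrophic section by 0.11 to 0.31 as deposited, but *Ddost* turned to -0.05 under both quantile normalization and lowess centring. All 15 of their compared probe sets were above 0, against 42.4% of all probe sets compared, and 5 of the 15 were of *Rpn1*. The catalytic subunit genes were *Stt3a*, which acts on chains as they enter, and *Stt3b*, which can act later. *Stt3a* had 17827 in the columnar/hypertrophic section and 14429 in the round section, 0.31, and *Stt3b* had 13143 and 11616 there, 0.18, with a dimmer probe set at 0.61. *Rpn1* and *Rpn2*, encoding the ribophorins, were at 0.28 and 0.29, and the 5 compared probe sets of *Rpn1* gave 0.28 to 0.37. *Dad1*, named for a defence against cell death, had 12557 in the columnar/hypertrophic section and 10130 in the round section, with probe sets at 0.31 and 0.57. *Ddost*, nearest to 0 in this group, had 12338 in the columnar/hypertrophic section and 11462 in the round section, 0.11.

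**Figure D2:**
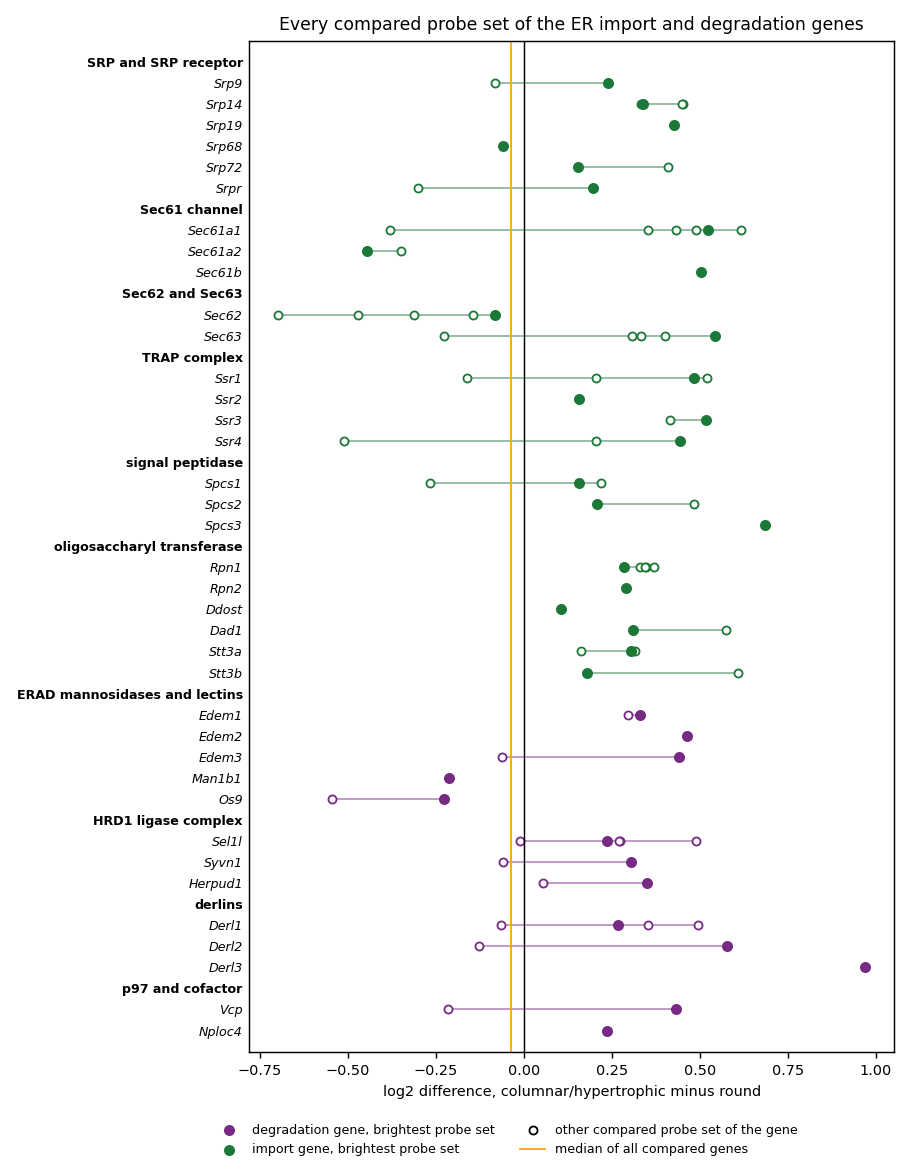
The log2 difference (columnar/hypertrophic minus round) of all 89 compared probe sets of the 37 genes, 1 array per zone. Filled circles are the brightest probe set of a gene, open circles its others and the orange line the median of all genes compared, -0.04. The oligosaccharyl transferase genes lie close together on the right of 0, whereas 13 genes have probe sets on both sides of it.

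The sign could differ between probe sets of a gene. Of the 26 genes with more than 1 compared probe set, 10 had all of them above 0, which 25.1% of such genes on the arrays had, 3 (*Sec61a2*, *Sec62* and *Os9*) had all below 0, against 34.5%, and 13 had probe sets on both sides of 0, against 40.5%. Of the 89 probe sets 65 were above 0, or 73%, against 42.4% of all probe sets compared. In 19 of the 26 genes the dimmest probe set had a lower difference than the brightest, as in 56.6% of such genes on the arrays. This held for all 9 such degradation genes and for 10 of 17 import genes.

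Among the degradation genes, those that mark misfolded glycoproteins lay on both sides of 0. The EDEM proteins trim mannose from misfolded chains. *Edem1*, a known XBP1 target, had 1870 in the columnar/hypertrophic section and 1488 in the round section, with probe sets at 0.33 and 0.30. *Edem2* had 773 and 561 in the columnar/hypertrophic and round sections, 0.46, and its dimmer probe set was under the floor in both. *Edem3* had 3705 in the columnar/hypertrophic section and 2728 in the round section, 0.44, and -0.06 on its dimmer probe set. The remaining genes of this group were lower in the columnar/hypertrophic section. *Man1b1*, encoding the ER mannosidase that starts the trimming, had 313 there and 363 in the round section, -0.21. *Os9*, encoding a lectin that hands trimmed chains to the ligase, had 1726 in the columnar/hypertrophic section and 2021 in the round section, with probe sets at -0.23 and -0.55.

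The genes of the HRD1 ligase complex were all higher in the columnar/hypertrophic section by their brightest probe sets, within a narrow range. *Herpud1*, which encodes the adaptor HERP, had 5979 in the columnar/hypertrophic section and 4691 in the round section, with probe sets at 0.35 and 0.06. *Syvn1*, encoding the ubiquitin ligase HRD1 itself, had 2100 and 1700 in the columnar/hypertrophic and round sections, 0.31, and -0.06 on its dimmer probe set, which is its only specific one. SEL1L is the scaffold that holds HRD1 in place. *Sel1l* had 2807 in the columnar/hypertrophic section and 2383 in the round section, 0.24, with 5 probe sets from -0.01 to 0.49.

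The derlins, which help misfolded chains across the membrane, included the widest difference of all 37 genes. *Derl3* had 364 in the columnar/hypertrophic section and 186 in the round section, a log2 difference of 0.97 or 1.96-fold on its single probe set, and 4.47% of all genes compared were at or above it. *Derl2* had 1974 in the columnar/hypertrophic section and 1325 in the round section, 0.58, whereas its dimmer probe set gave -0.13. *Derl1* had 7843 and 6512 in the columnar/hypertrophic and round sections, 0.27, with 4 probe sets from -0.06 to 0.49. The p97 ATPase, which pulls chains into the cytosol, is encoded by *Vcp*. Its signals were 12252 in the columnar/hypertrophic section and 9078 in the round section, 0.43, with a dimmer probe set at -0.22. *Nploc4*, encoding a p97 cofactor, had 630 in the columnar/hypertrophic section and 534 in the round section, 0.24.

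The values of degradation and import genes overlapped. The degradation median exceeded the import median by 0.04, with values from -0.23 to 0.97 for degradation and from -0.44 to 0.69 for import. With the mean over the probe sets of each gene the order turned, with medians of 0.22 for degradation and 0.28 for import, a difference of -0.05. The import median depended more than the degradation median on how the arrays were scaled. After quantile normalization the medians were 0.30 for degradation and 0.12 for import, and after lowess centring, which removes a trend of the difference with signal, they were 0.28 and 0.13. Under lowess centring 11 of 13 degradation and 19 of 24 import genes were above 0, when 51.5% of all genes were. Since genes are not replicates, no test of the difference between the groups was made.

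**Figure D3:**
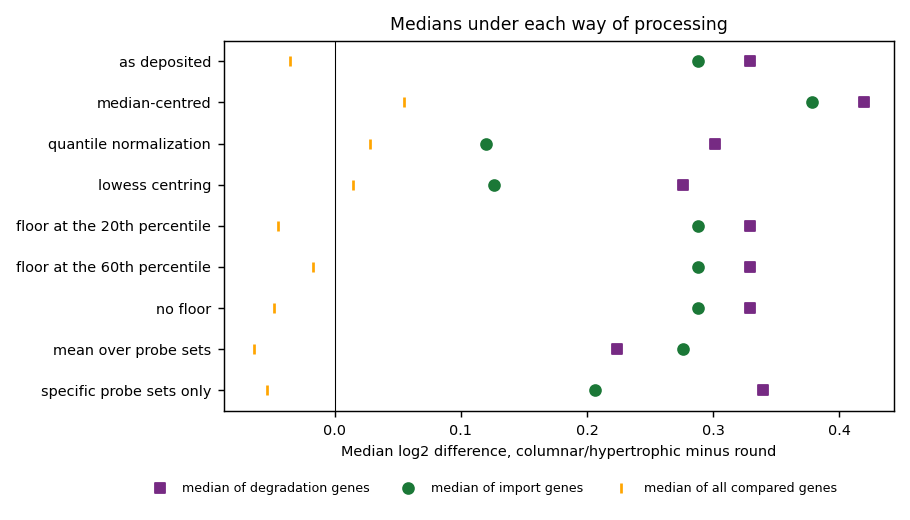
Median log2 difference (columnar/hypertrophic minus round) of the degradation genes (squares), the import genes (circles) and all compared genes (orange bars) as deposited and under 8 other ways of processing. The import median drops to 0.12 and 0.13 under quantile normalization and lowess centring, and the degradation median lies below the import median only with the mean over probe sets.

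Further genes of the same pathways were taken from lists of other import and other ERAD genes. Of 39 other ERAD genes compared, 26 or 66.7% were above 0, against 46.9% of all genes, with a median of 0.16. By 2-fold or more 0 favoured the columnar/hypertrophic section, against 4.26% of all genes, and 1 the round section, against 6.17%. That gene was *Fbxo2*, encoding a ubiquitin ligase subunit that binds sugar chains, with 203 in the columnar/hypertrophic section and 408 in the round section. Its relative *Fbxo6* had 139 and 73.2 in the columnar/hypertrophic and round sections, 0.93, near the floor. Among 39 promoters of these genes, 2 held an element, an ERSE in *Creld2* and a UPRE in *Ube2j1*, against 0.822% of all promoters. *Creld2*, a UPR-induced gene, had 3029 in the columnar/hypertrophic section and 1654 in the round section, 0.87. Of 30 other import genes compared, 19 or 63.3% were above 0, against the same 46.9%, with a median of 0.19. By 2-fold or more 1 exceeded the round section, against 4.26% of all genes. Of 26 promoters 1 held an element, the ERSE-II of *Krtcap2*, an oligosaccharyl transferase subunit gene with a log2 difference of 0.28.

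That import gene was *Sec11c*, a catalytic subunit gene of signal peptidase. It had 1273 in the columnar/hypertrophic section and 293 in the round section, a log2 difference of 2.12, but its second probe set gave -0.17. *Sec11a*, encoding the alternative catalytic subunit, had 9949 in the columnar/hypertrophic section and 8853 in the round section, 0.17. *Tram2*, whose product is known to act in collagen synthesis, went the other way with 1733 in the columnar/hypertrophic section and 3214 in the round section, and probe sets at -0.89 and -1.27. *Emc9*, of the ER membrane complex that inserts membrane proteins, had 79.5 and 137 in the columnar/hypertrophic and round sections, -0.79, near the floor.

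**Figure D4:**
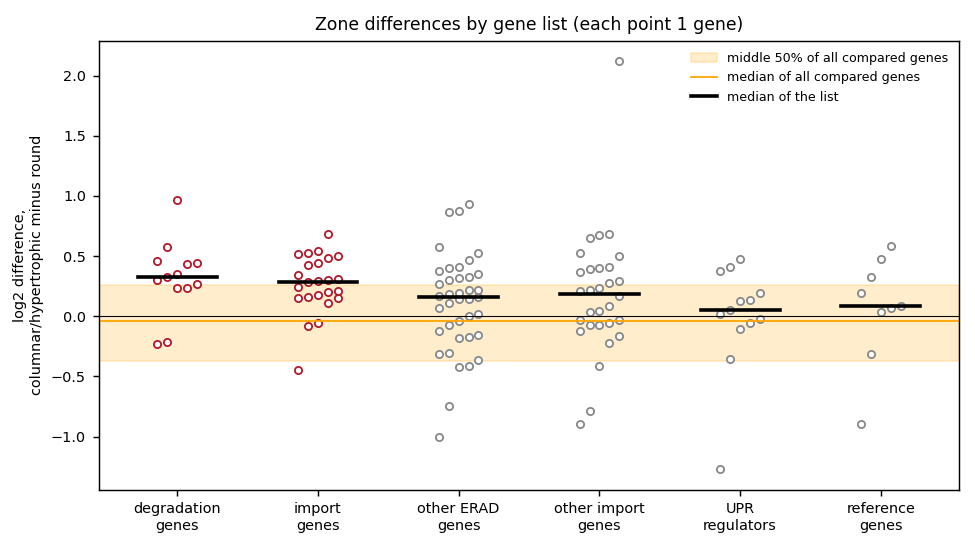
The log2 difference (columnar/hypertrophic minus round) of each gene (circles) in the described degradation and import groups and in 4 other lists, with black bars at the list medians. The orange line and band are the median of all compared genes, -0.04, and their middle 50%, and the described groups have medians of 0.33 and 0.29, against 0.16 and 0.19 for the other ERAD and other import genes.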

How the data were processed

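Probe set signals of 2 Affymetrix mouse genome arrays were used, 1 per zone, assigned by the sample titles. The deposited values are intensities on a linear scale. The authors' processing notes list MAS5 without a version, while robust multiarray analysis, which gives log values, is named in the methods for heatmaps. No further scaling was applied, as the means trimmed by 2% at each end were 496 and 497 in the columnar/hypertrophic and round sections. Detection calls were not used. A floor of 65.9 was set at percentile 40 of the signals, and a probe set at or under it in both arrays was not compared, while a single signal under it was raised to it. Names came from the platform annotation, with 34945 of 45037 probe sets on 1 symbol and 932 on several, which were left unnamed. Log2 differences took no pseudocount. With 1 array per zone no test was run, and the number of arrays limits the precision.

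The described genes and the other lists were chosen with earlier results of these data known. Named with signals were genes past 1.5-fold, the gene nearest 0 in each role, genes with probe sets of both signs and, of other lists, those past 2-fold and the 3 largest differences. Many others were added after their values were seen. Alternatives were a 1.5-fold rule, 3 other scalings, 3 floors, averaging all probe sets of a gene, and using only specific ones (without _x, _s or _a marks). The steps were tested on simulated data. Scripts ran under Python 3.11.15 with pandas 2.3.3 and numpy 2.4.6, lowess came from statsmodels 0.14.6, and plots were drawn in matplotlib 3.10.9.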

Additional observations from a re-analysis of the deposited data

How the results depend on the processing

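No paired analysis was possible because a zone is represented by a single array, without replicate numbers or tests. Against 0.29 as deposited, the import median was 0.38 when differences were centred on the median of all compared probe sets, 0.12 after quantile normalization and 0.13 after lowess centring. The degradation median stayed within 0.22 to 0.42 over all 8 settings. Specific probe sets were left for only 17 import and 12 degradation genes, and *Derl3* was among those lost. Their medians were 0.21 for import, with 13 above 0, and 0.34 for degradation, with 9 above 0, where 45.2% of all genes were. A floor at percentile 20 or 60, or none, left both medians as they were, although the round signal of *Derl3* lay under the floor at percentile 60 and its difference became 0.82. The number of described genes that exceeded the round section by 2-fold or more was 1 under each of median centring, quantile normalization and lowess centring, against 0 as deposited. By 1.5-fold or more, 2 did so as deposited. Of the single-gene values 284 stayed within the SD of 0.34 and 4 moved past it, namely *Ssr4* (0.04) and *Derl2* (0.22) with the mean over probe sets, and *Srpr* (-0.30) and *Syvn1* (-0.06) on specific probe sets. Except for *Derl3*, the 3 floor settings did not change these values. A turn of sign within the SD counts as staying, so the tally does not measure stability. In 8 of 37 genes (*Ddost*, *Sec62*, *Spcs1*, *Srp68*, *Srp9*, *Srpr*, *Ssr2* and *Syvn1*) the sign turned in at least 1 setting. The cause was not tested.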

Other observations

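The regulators of the unfolded protein response differed in both directions. The 13 genes had a median log2 difference (columnar/hypertrophic minus round) of 0.06, with 8 above 0, where 46.9% of all genes were. By 2-fold or more 0 favoured the columnar/hypertrophic section and 1 the round section, against 4.26% and 6.17% of all genes. *Ern1*, encoding the sensor IRE1, had signals of 659 in the columnar/hypertrophic section and 473 in the round section, and its 3 probe sets gave 0.18 to 0.75. *Atf4*, the transcription factor downstream of eIF2α phosphorylation, had 11757 and 8830 in the columnar/hypertrophic and round sections, 0.41, with a second probe set at 0.11. *Xbp1*, the target of IRE1 splicing, had 13104 in the columnar/hypertrophic section and 12605 in the round section, 0.06, the lowest of its 4 probe sets, which reached 0.48. *Hspa5*, encoding the chaperone BiP, had 32636 and 25210 in the columnar/hypertrophic and round sections, 0.37, with 3 probe sets from -0.04 to 0.41. *Creb3l2* was at -0.36, with a second probe set at 0.35. The gene past 2-fold was *Creb3l1*, encoding the ER stress transducer OASIS, known from osteoblasts, with 114 in the columnar/hypertrophic section and 274 in the round section, -1.27 on its single probe set. Of the 9 compared reference genes 7 were above 0, at a median signal over both arrays of 4532. Their median log2 difference was 0.09, and they reached from -0.90 for *B2m* to 0.59 for *Hprt*.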
